A study of Mus musculus with 6 samples.

Results

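The genes described here were 8 immediate early and activity-induced genes of the mouse hippocampus, namely Npas4, Fos, Jun, Csrnp1, Arc, Ptgs2, Dusp1 and Gadd45b. They were taken by gene symbol from the authors' table of 475 genes that changed between mice given CI-994 and mice given its vehicle, and each of the 8 had 1 row. CI-994 is a benzamide that inhibits class I histone deacetylases. All animals were C57Bl/6 mice aged 4 months that had been fear-conditioned to a context, re-exposed to it to recall the memory, and put through spaced extinction sessions. CI-994 was injected daily at 30 mg/kg in one group, and the other group received injections of vehicle alone on the same schedule. Whole hippocampi of one hemisphere were collected 1 h after the last extinction session, with 3 libraries of total RNA per group. The sex of the mice is not given in the labels, and transcripts of sex-linked genes differed between the groups, as given below.

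Immediate early genes are switched on by synaptic activity without new protein synthesis: calcium entry activates ERK and CaM kinases, which act through CREB, SRF and MEF2 already bound at the promoters. Their products are transcription factors that drive a later wave of genes, proteins that act at the synapse, and inhibitors that end the signal. In the hippocampus their transcripts are short-lived, and they are used as a sign of neurons recently active in learning, recall or extinction. An RNA level at a single time after a session therefore reflects both the size and the timing of the response.

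Of the 8 genes, 6 were higher in CI-994 (Npas4, Fos, Csrnp1, Arc, Dusp1 and Gadd45b) and 2 were lower (Jun and Ptgs2), in a table in which 41.9% of all rows were higher in CI-994 and 58.1% lower. The log2 ratio (CI-994 value over vehicle value) had a median of 0.85 over the 8 genes, between -0.55 and 2.32, beside a median of -0.34 over the 475 genes. The members were chosen with earlier results of these data known, so these counts and medians depend on the choice and test nothing. On the wider lists of activity-induced genes described below, 17 genes were in the table and 35.3% of them were higher. Each gene had 1 value per group in arbitrary units, in which the authors had combined the libraries, so the spread between mice, the overlap of the groups and the sequencing depth are unknown. The p-values below are those of the authors' deposited table, which held only genes with p below 0.05 and did not call them adjusted. Directions were taken from the labelled group values. The header of the authors' log2 column names CI-994 first, yet its sign was the opposite of that in all 475 genes, so every direction given here would turn around if the labels of the group values had been exchanged.

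The promoters are shown first for the 3 higher genes with the largest ratios among those with an entry in the RefSeq table, Npas4, Fos and Dusp1, and for Jun, the AP-1 partner of Fos that was lower. The 250 bases before the annotated start are given 5′ to 3′ along the gene (RefSeq, GRCm38.p6). Capitals mark TGACG on either strand, the core of the cAMP response element (CRE) that CREB binds, and in Jun the CRE-like variant TGACATCA.
Npas4, chr19:4989972-4990221, minus strand: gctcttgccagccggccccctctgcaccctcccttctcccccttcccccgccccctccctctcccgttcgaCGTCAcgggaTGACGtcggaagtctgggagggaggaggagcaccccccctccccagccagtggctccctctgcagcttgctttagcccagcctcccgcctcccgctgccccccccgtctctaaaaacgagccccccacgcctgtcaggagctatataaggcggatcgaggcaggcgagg
Fos, chr12:85473640-85473889, plus strand: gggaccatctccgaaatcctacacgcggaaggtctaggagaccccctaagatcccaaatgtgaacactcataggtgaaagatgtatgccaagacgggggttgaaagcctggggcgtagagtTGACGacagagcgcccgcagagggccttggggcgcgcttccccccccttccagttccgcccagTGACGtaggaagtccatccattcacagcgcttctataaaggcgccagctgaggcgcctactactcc
Dusp1, chr17:26508473-26508722, minus strand: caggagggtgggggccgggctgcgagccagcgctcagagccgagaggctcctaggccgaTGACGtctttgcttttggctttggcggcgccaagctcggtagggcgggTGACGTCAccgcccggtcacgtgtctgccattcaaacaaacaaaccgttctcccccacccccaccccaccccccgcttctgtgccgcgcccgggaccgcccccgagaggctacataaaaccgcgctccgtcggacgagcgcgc
Jun, chr4:95052223-95052472, minus strand: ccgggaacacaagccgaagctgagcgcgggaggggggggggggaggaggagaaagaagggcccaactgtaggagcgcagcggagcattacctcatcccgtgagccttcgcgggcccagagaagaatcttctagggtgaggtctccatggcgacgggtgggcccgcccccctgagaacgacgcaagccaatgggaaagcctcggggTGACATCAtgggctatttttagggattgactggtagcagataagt

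Windows of 300 bases, from 250 before to 50 after the start, were found for 7 of the 8 genes, with 4 alternative starts for Csrnp1 and 1 for each of the others; Arc was not matched. Searched on both strands, TGACG was present in windows of Npas4, Fos, Csrnp1, Dusp1 and Ptgs2. These were 8 of the 10 windows, 4 of them from Csrnp1, and TGACG was in 20.8% of all 32851 promoter windows. In Npas4 it began 179 and 169 bases before the start, on opposite strands. In Fos it began 129 and 66 bases before the start, with a TATAAA 33 bases before it. Dusp1 alone held the full palindrome TGACGTCA, which contains the core on both strands, 143 bases before the start (1.79% of all windows), and a further core at 191 bases. All 4 windows of Csrnp1 held the core, and 1 of them held a pair of AP-1 sites (TGAGTCA or TGACTCA, 5.20% of all windows). The 1 match in Ptgs2 began 14 bases after the start and overlapped an E-box (CACGTG, 7.15% of all windows) that began 17 bases after it. Dusp1 also held an E-box, which began 126 bases before its start.

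The other higher gene with a window, Gadd45b, held no TGACG, but an E-box that began 185 bases before the start and, as in 13.6% of all windows, a TATAAA 46 bases before it. Jun held none of the motifs searched at first. Its TGACATCA, which is in 3.62% of all windows, began 45 bases before the start and was added to the search after the sequence had been seen. The TCGTG core bound by NPAS4-type factors was present in 16.0% of all windows. It was found in 2 windows of Csrnp1 and in no other of the 10. The CArG box of SRF (1.63% of all windows) and the EGR site GCGGGGGCG (2.91%) were found in none of the 10, which says only that these letters are not in these windows. All 10 windows were richer in G and C than the median window, at 57.7 to 78.3% against 52.7%. TGACG contains the pair CG, and the 10 windows held 7 to 45 such pairs each, beside a median of 7. The shares over all windows were not matched for this, so no enrichment can be read from them. The motif matches describe the sequence, and binding was not measured.

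**Figure D1:**
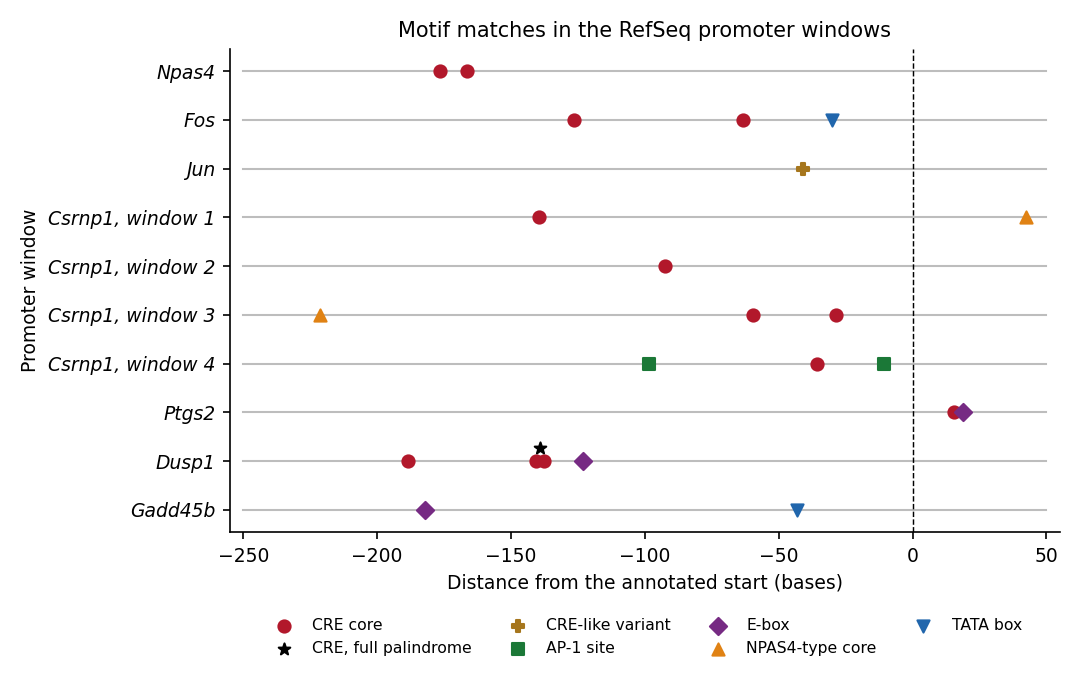
Motif matches by distance in bases from the annotated start, for the 10 RefSeq promoter windows of 7 genes; each symbol is 1 match on either strand, and the dashed line is the start. TGACG cores stand before the start in Npas4, Fos, Dusp1 and all 4 windows of Csrnp1, after it in Ptgs2, and are absent from the windows of Jun and Gadd45b.

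Among the transcription factors, Npas4 had the largest ratio. It encodes a neuron-specific bHLH-PAS factor that is induced by calcium entry and controls inhibitory synapses and Bdnf. Npas4 was at 4.43 units in CI-994 and 0.887 units in vehicle, 4.99-fold higher (log2 ratio 2.32, p = 1.18e-08 in the authors' deposited table). Only 27 of the 199 higher genes had a larger ratio. Its vehicle value was under 1 unit, and with 1 unit added to both groups the log2 ratio was 1.52. Npas4 lies on chromosome 19 from 4984354 to 4989971 (mm9, as are all positions of genes below). None of the other 12 genes on a list of bHLH-PAS relatives and partners, which included its partners Arnt and Arnt2, was among the 475.

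Fos and Jun encode bZIP proteins that join as the AP-1 dimer, and their transcripts differed in opposite directions. Fos was at 12.3 units in CI-994 and 4.03 units in vehicle (log2 ratio 1.61, p = 1.97e-08 in the authors' deposited table), and 39 higher genes had a larger ratio. Jun was at 32.3 units in CI-994 and 45.0 units in vehicle (log2 ratio -0.48, p = 0.002 in the authors' deposited table). Jun was thus 1.40-fold lower in CI-994, less than the median lower gene of the table (-0.50). Of 25 AP-1 and related bZIP genes these were the only 2 in the table, so Fosb, Fosl2, Junb, Jund and Atf3 were not among the genes listed. Of 13 genes of the JNK pathway, whose kinases phosphorylate Jun, none was in the table either. Fos lies on chromosome 12 from 86814850 to 86818219, and Jun on chromosome 4 from 94715726 to 94718913.

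Csrnp1, a cysteine- and serine-rich nuclear protein that acts in transcription, had the smallest ratio among the 6 higher genes. Its values were 6.09 units in CI-994 and 3.83 units in vehicle (log2 ratio 0.67, p = 0.0182 in the authors' deposited table). Csrnp1 ranked 131 of the 199 higher genes by ratio, below their median of 0.82, and was the only member whose deposited p was above 0.01. It lies on chromosome 9 from 119880283 to 119893776.

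**Figure D2:**
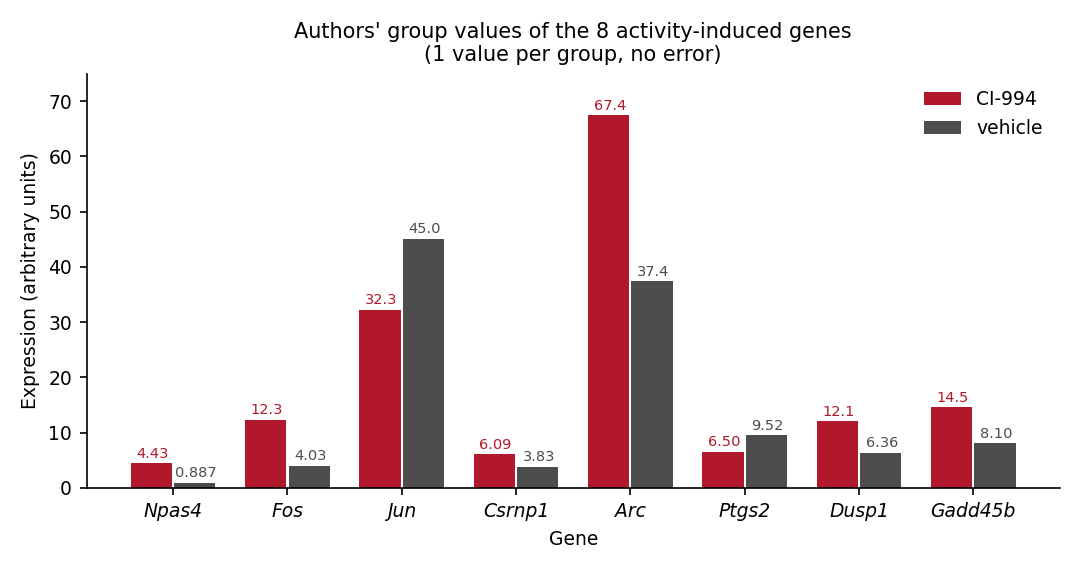
The authors' group values in arbitrary units for the 8 genes, with CI-994 in red and vehicle in grey. Each bar is 1 deposited value for a group of 3 libraries, with no error. CI-994 is the taller bar in 6 genes, and the shorter one in Jun (32.3 against 45.0 units) and Ptgs2 (6.50 against 9.52 units).

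Arc and Ptgs2 encode effectors rather than transcription factors, and they too differed in opposite directions. Arc mRNA travels to active dendrites, where its protein promotes endocytosis of AMPA receptors. Arc was at 67.4 units in CI-994 and 37.4 units in vehicle (log2 ratio 0.85, p = 2.37e-08 in the authors' deposited table). Its difference between the groups was 30.1 units. By the deposited p Arc ranked 37 of 475, beside 33 for Npas4 and 36 for Fos, although 93 higher genes had a larger ratio. On a list of 26 genes of Arc and AMPA receptor trafficking, 3 were in the table, and the others were the auxiliary subunits Cacng5 (log2 ratio -1.44) and Cacng8 (-0.34), both lower in CI-994. The receptor subunits Gria1 to Gria4 were not listed. Arc lies on chromosome 15 from 74499512 to 74503000.

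Ptgs2 encodes cyclooxygenase-2, which makes prostaglandin H2 from arachidonic acid and is induced by activity in excitatory neurons. It was at 6.50 units in CI-994 and 9.52 units in vehicle (log2 ratio -0.55, p = 0.00775 in the authors' deposited table). Of 20 genes of prostanoid synthesis and reception, the only other one in the table was Ptgds, which makes prostaglandin D2. It was lower as well, at 307 units in CI-994 and 443 units in vehicle (log2 ratio -0.53). Ptgs2 lies on chromosome 1 from 151947253 to 151955142.

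Dusp1 and Gadd45b belong to the part of the response that limits signalling and alters chromatin. Dusp1 encodes a nuclear phosphatase that inactivates the MAP kinases ERK, p38 and JNK. It was at 12.1 units in CI-994 and 6.36 units in vehicle, 1.90-fold higher (log2 ratio 0.93, p = 0.00055 in the authors' deposited table). None of the other 9 dual-specificity MAP kinase phosphatases on a fixed list, Dusp4, Dusp5 and Dusp6 included, was in the table. Gadd45b, which has been linked to activity-dependent DNA demethylation in the dentate gyrus, was at 14.5 units in CI-994 and 8.10 units in vehicle (log2 ratio 0.84, p = 0.00452 in the authors' deposited table). Its relatives Gadd45a and Gadd45g and the TET and DNMT enzymes were not listed, leaving Gadd45b as the 1 gene in the table of 12 on that list. Dusp1 lies on chromosome 17 from 26642535 to 26645417, and Gadd45b on chromosome 10 from 80392835 to 80394949.

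By size and p the 8 genes fell into tiers. Npas4 and Fos were the only 2 members at least 2-fold higher, in a table where 16.8% of genes were, and no member was at least 2-fold lower (7.16% of the table). Arc, Dusp1 and Gadd45b lay close together, with log2 ratios of 0.85, 0.93 and 0.84. A deposited p up to 0.001 was held by Npas4, Fos, Arc and Dusp1, all 4 higher, beside 25.9% of the table. A p up to 0.01 was held by 7 members, beside 49.7% of the table. An absolute log2 ratio of at least 0.5 was reached by 7 members, all but Jun, beside 61.9% of the table. All 475 genes had been listed by the authors for a difference in this same contrast.

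**Figure D3:**
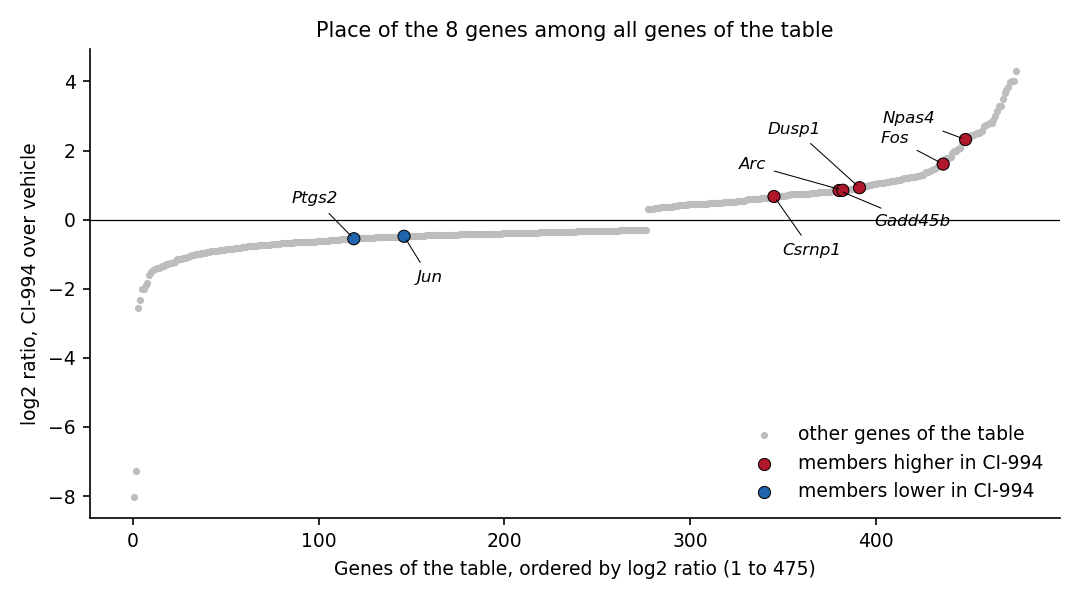
All 475 genes ordered by their log2 ratio, CI-994 over vehicle, with the 8 members marked in red (higher) or blue (lower) and the others in grey. Npas4 and Fos stand on the rising right end at 2.32 and 1.61, the other 4 higher members between 0.67 and 0.93, and Ptgs2 and Jun on the flat left part at -0.55 and -0.48.

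**Figure D4:**
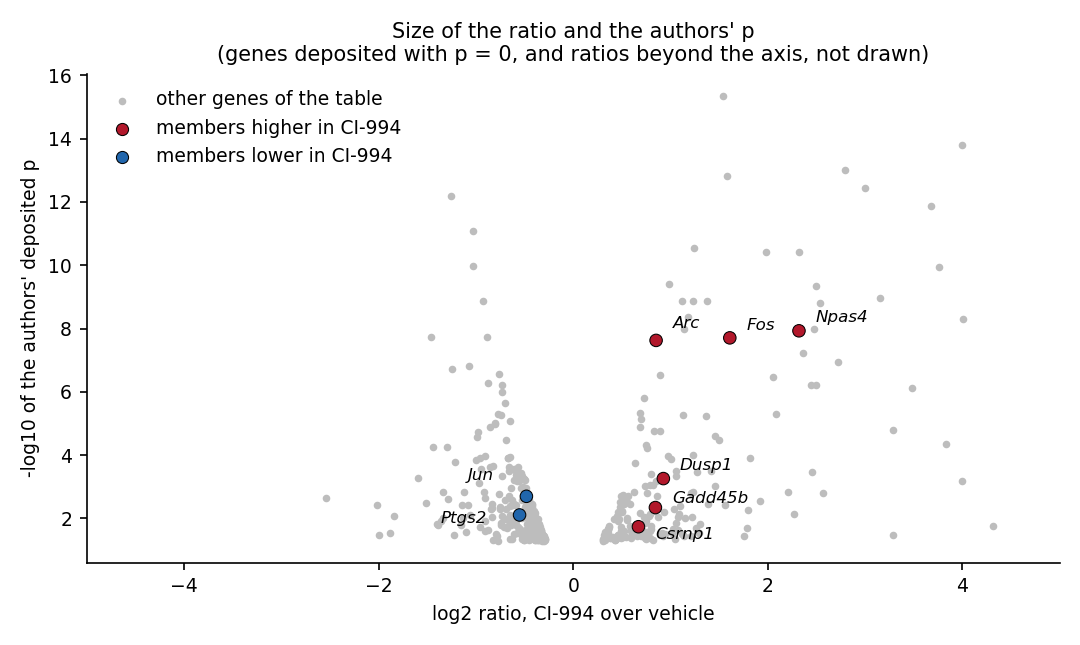
The log2 ratio (CI-994 over vehicle) against -log10 of the p in the authors' deposited table; the 6 genes deposited with p = 0 and ratios beyond the axis are not drawn. Npas4, Fos and Arc lie at nearly the same height (p of 1.18e-08, 1.97e-08 and 2.37e-08) although their log2 ratios are 2.32, 1.61 and 0.85.

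Outside the 8 members, each other gene that was listed here as activity-induced and found in the table was lower in CI-994. Members and lists were chosen with earlier results of these data known, so this split depends on which listed genes were made members. Of 103 genes on a pair of lists, of transcription and nuclear regulators and of effectors and secreted proteins, 17 were in the table. Of these, 6 were higher and 11 lower, with a median log2 ratio of -0.45. The share that was higher was 35.3%, beside 41.9% of the table. The 6 higher genes were the 6 higher members, and the 9 listed genes outside the 8 members were all lower, beside 58.1% of the table. Among the regulators these were the bZIP factors Cebpd (log2 ratio -0.92) and Cebpb (-0.65), the repressor Bcl6 (-0.48), and the clock-related Bhlhe40 (-0.42) and Per1 (-0.40). Among the effectors they were the opioid precursors Pdyn (-1.51) and Penk (-1.46), which are also dentate granule cell markers, the pentraxin Nptx1 (-0.51), which clusters AMPA receptors, and the small GTPase Rasd1 (-0.45). The deposited locus of Cebpd spanned 260 kb, that of Bhlhe40 89.9 kb and that of Rasd1 16.7 kb. Whether their values include reads of neighbouring genes was not tested. The other 86 genes were not in the table, among them the EGR and NR4A factors, Fosb, Junb, Homer1, Bdnf and Nptx2. Whether those differed cannot be read from a table of changed genes. Both groups had the extinction sessions, so whether the listed genes were induced by activity in these mice was not tested.

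**Figure D5:**
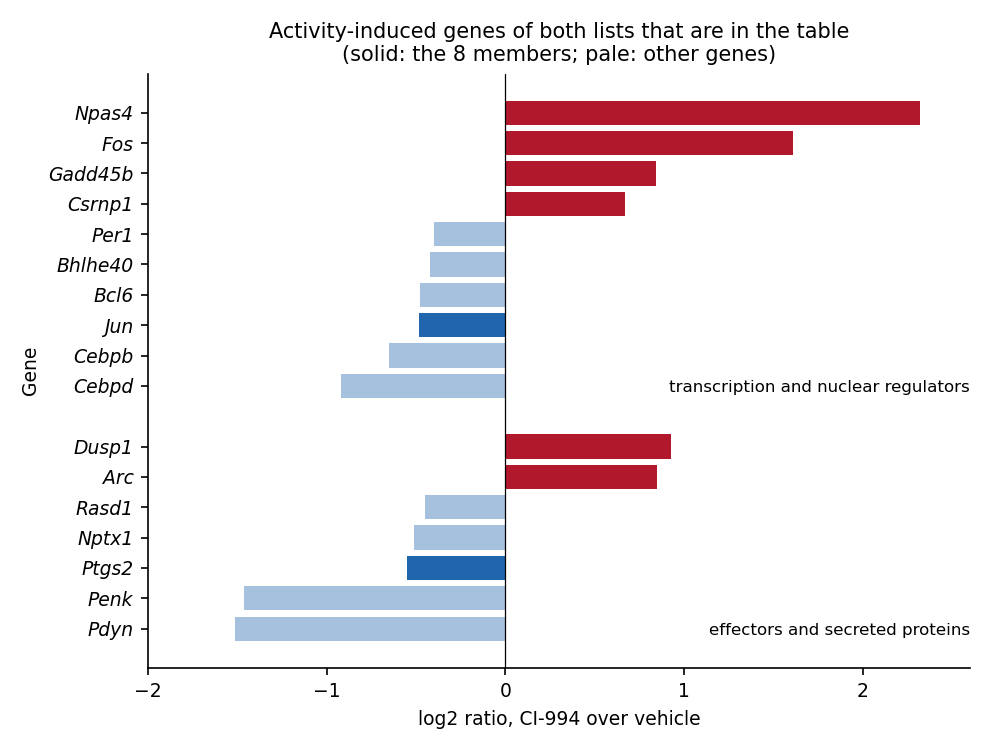
Log2 ratios of CI-994 over vehicle for the 17 genes of both activity lists that are in the table, 10 regulators above and 7 effectors below; solid bars are the 8 members and pale bars the other 9 genes. Bars to the right are the 6 higher members, and the 9 pale bars all point left.

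Upstream of these genes, the table held 5 of 44 listed genes of calcium, ERK and CREB signalling, each lower in CI-994, beside 58.1% of the table. They were the CREB coactivator Crtc1 (log2 ratio -0.39), the activity-regulated factor Mef2c (-0.40), the SRF partners Elk1 (-0.43) and Elk3 (-0.65), and the calcium-stimulated adenylyl cyclase Adcy1 (-0.45). The largest of their deposited p-values was 0.043, for Elk3. Adenylyl cyclases that were not on this list went both ways, with Adcy6 higher (log2 ratio 0.47) and Adcy2 lower (-0.30). Of 19 histone deacetylases and corepressor genes, which include the targets of CI-994, none was in the table.

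All 8 genes had deposited loci shorter than the median of the table, a trait that their choice by symbol did not use. Their deposited loci spanned 2.12 kb (Gadd45b) to 13.5 kb (Csrnp1), with a median of 3.43 kb, beside 29.6 kb over the 475 genes. Under 10 kb lay 7 of the 8 (87.5%), beside 109 of the 475 (22.9%). In the GENCODE M21 annotation the longest transcript of Jun had 1 exon, that of Arc 3, those of Fos, Csrnp1, Dusp1 and Gadd45b 4 each, that of Npas4 8 and that of Ptgs2 10. Exon numbers thus varied, while loci below the median were common to the higher and the lower members. On the chromosome, looked at after the values were seen, Gadd45b lay 16.4 kb from Gng7 (log2 ratio -0.36), and Arc lay 48.7 kb from 4930572J05Rik (-0.46), both genes of the table and both of the opposite sign. For Dusp1 the nearest was Rgs11, 294 kb away and also higher (1.08), and for the other 5 members the nearest gene of the table lay between 715 and 8149 kb away.

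For each member, the gene of the table with the most similar pair of values was found as the smallest distance over the log2 values of the 2 groups. For Npas4 this was Wfdc2, a choroid plexus marker (5.18 units in CI-994 and 1.08 units in vehicle, distance 0.36), and for Fos it was Msx1 (10.7 and 4.57 units, distance 0.27). Closer matches were 4930572J05Rik for Jun (distance 0.020), Akap13 for Csrnp1 (0.027), Slc31a1 for Dusp1 (0.037) and Eepd1 for Ptgs2 (0.047), and looser ones Snhg11 for Arc (0.16) and Wsb1 for Gadd45b (0.19). With only 2 group values behind each distance, and no statement in the sources used here of whether the units account for gene length, these pairs describe the deposited values alone. Set against the log2 ratios of the 20 genes nearest in mean log2 value, the ratio of Dusp1 was above 19, those of Npas4, Arc and Gadd45b above 18 each and that of Fos above 17. Csrnp1 was above 10 and below 10, Ptgs2 above 8 and below 12, and Jun above 3 and below 17. Of the 20 genes, those higher in CI-994 numbered 11 for Npas4, 10 for Fos, 8 for Dusp1, 7 for Gadd45b and 3 for Arc. They numbered 12 for Csrnp1, 8 for Ptgs2 and 4 for Jun. A higher member is above every lower gene by sign alone, so these counts do not show a ratio unusual for its level.

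Markers of other cells moved in the same contrast. More or fewer cells of a type cannot be told apart from more or less RNA per cell in these bulk samples. The marker lists were written with earlier results of these data known, so neither the number of markers found nor their shared direction is a test. The table held 24 of 25 choroid plexus markers, each of them higher in CI-994, beside 41.9% of the table. Their summed values were 636 units in CI-994 and 136 units in vehicle. None was at 0, 12 were under 1 unit in vehicle, and Ttr was not listed. These markers were 17 of the 27 genes with a larger ratio than Npas4, and without them Npas4 ranked 11 and Fos 20 of 175 higher genes. Only the listed markers were left out, and whether the remaining genes above Npas4 also come from choroid plexus was not tested. The table held 14 of 18 dentate granule cell markers, each of them lower in CI-994, beside 58.1% of the table. Their summed values were 142 units in CI-994 and 291 units in vehicle, and none was at 0. Pyramidal markers in the table were lower too, 3 of 9 for CA1 and 5 of 12 for CA3 and CA2. Markers of astrocytes (1 of 10), endothelium (1 of 12) and interneurons (3 of 12) were few, and none of the 12 microglial and 12 oligodendrocyte markers was listed. The astrocyte marker Aqp4 (log2 ratio -0.34) and the endothelial marker Vwf (-0.51) were lower. Interneuron markers went both ways, with Vip higher (0.69) and Reln (-0.39) and Calb2 (-0.52) lower. Xist was at 25.3 units in CI-994 and 8.46 units in vehicle, and the Y-linked Ddx3y at 0.0503 units in CI-994 and 7.73 units in vehicle. The Y-linked Uty was at 0.00821 units in CI-994 and 2.12 units in vehicle. The groups thus differed in sex-linked transcripts as well as in treatment, and differences by sex and by treatment cannot be told apart. The part of tissue makeup or of these sex-linked differences in the values of the 8 genes was not tested.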

How the data were processed

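Hippocampal RNA was sequenced in 3 CI-994 and 3 vehicle libraries. Reads were handled with TopHat and Cuffdiff on mm9, per the submitters' processing notes; tool versions, annotation, normalisation and filters are not stated there. The authors deposited 1 table of 475 genes with a normalised expression signal in arbitrary units for each group, plus a p-value and a log2 ratio per gene, per the file headers. The deposited log2 column equalled the log2 of vehicle over CI-994 within 0.0001 in 475 genes.

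Ratios, ranks and counts were recomputed from the group values with Python 3.11.15, numpy 2.4.6, pandas 2.3.3 and matplotlib 3.10.9, and the scripts were tested on simulated data. The fit across libraries was not run, since the table held no values per library. No test beyond the authors' p-values was made. The members and the 21 gene lists (11 of pathways, 10 of markers) were chosen with earlier results of these data known. Named genes were the members, genes of the lists in the table, and the gene nearest to each member over both group values; genes named as chromosomal neighbours were chosen after their values were seen. Lists were matched by symbol and by RefSeq synonyms. Promoters came from RefSeq (GRCm38.p6) and exon numbers from GENCODE M21, matched by symbol.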

Additional observations from a re-analysis of the deposited data

How the results depend on the processing

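No paired analysis was possible because the table gives 1 value per group; leaving out each replicate in turn was not run for the same reason. Of the 8 members, 4 remained at a deposited p up to 0.001 (all 4 higher) and 2 where the log2 ratio had to reach 1 in size (Npas4 and Fos, both higher), since each admits fewer genes. A p up to 0.01 left 7 without Csrnp1, at least 1 unit in both groups 7 without Npas4, and a log2 ratio of 0.5 left 7 without Jun. A pseudocount of 1 or 0.1 turned no member around, and only Npas4 moved by more than 1.5 times, to 1.52 with a pseudocount of 1. Read by the header of the authors' log2 column, all directions turn by construction: 2 members would be higher, and the log2 ratios would be -2.32 for Npas4, -1.61 for Fos, -0.67 for Csrnp1, -0.85 for Arc, -0.93 for Dusp1, -0.84 for Gadd45b, 0.48 for Jun and 0.55 for Ptgs2. The 17 genes of the activity lists became 13 at a p up to 0.01 (5 higher) and 16 with at least 1 unit in both groups (5 higher). They became 15 without dentate markers (6 higher) and 9 without the members (0 higher). These last 2 settings were chosen after seeing the data, as was the ranking without choroid plexus markers. Depth is unknown, so no counting error could be given.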
